A study of Mus musculus with 4 samples.

Results

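The Hox genes of the mouse lie in 4 clusters, and the binding of CTCF in and around them was described from ChIP-seq peaks of heart tissue. Of 39 protein-coding Hox genes in the annotation, 38 are described here: 10 in the Hoxa cluster on chromosome 6, 10 in Hoxb on chromosome 11, 9 in Hoxc on chromosome 15 and 9 in Hoxd on chromosome 2. A cluster was taken from the outer end of its first to that of its last described gene (at Hoxa2 on the 3′ side of Hoxa), and CTCF summits inside it and within 200 kb of its ends were taken from the conservative peak list. This gave 73 of the 54309 summits in that list, 28 inside the clusters, 22 on their 5′ sides and 23 on their 3′ sides. The 5′ side is the side of the group 13 genes, from which all genes of a cluster are read towards group 1.

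The hearts came from female B6CASTF1/J mice aged 2 months, a first-generation cross of C57BL/6J and CAST/EiJ. There was 1 group with no treatment or mutation: pool G and pool H each joined 2 heart biosamples and were sequenced as 2 libraries. The whole tissue mixes muscle, vessel, connective tissue and blood cells, so a missing peak and a peak in few of the cells cannot be told apart. No RNA was measured, so neither Hox expression nor the tissue label was checked.

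Hox genes code for homeodomain transcription factors that give body segments and limbs their identity along the axis, and the order of the genes on the chromosome follows the order in which they are used. Genes with the same number in different clusters are paralogs left by duplications of an ancestral cluster. CTCF is a zinc-finger protein that binds a long, directional motif. Together with cohesin it holds loops of chromatin in place, and sites in Hox clusters are known as boundaries between active and Polycomb-silenced stretches.

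The signal of a peak is the caller's value as deposited, without a stated unit. It is compared here within 1 list, with 2 exceptions. These are the ratios of pool G to pool H, and ranked candidates of both pools set beside the conservative list. The conservative list joins both pools. It was cut at 0.05 on the irreproducible discovery rate (IDR), which falls as replicates agree, and its median signal was 286. The read depth is unknown. The motif was searched as the 12-base CTCF core. "Core" stands for at most 1 mismatch within 100 bp of the summit, and "near site" for at most 2 mismatches with the centre within 20 bp of the summit. The near site was added after the peaks had been seen, and it was found at 76.6% of all 54309 peaks and in 7.09% of windows 1 kb away.

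The following 30-base sequences carry the results below. They are printed 5′ to 3′ on the strand of the motif, with the 12 bases aligned to the core in capitals, and were read from GRCm38.p6 (mm10), the C57BL/6J reference; the CAST/EiJ alleles were not read. The first set shows the sites beside the group 9 genes, which held the strongest inside peak of Hoxb, of Hoxc and of Hoxd.
Hoxb8-Hoxb9, chr11:96278939-96278968, plus strand: gcacagtggCCGCTAGATGGCatccttgct
Hoxc8-Hoxc9, chr15:102987584-102987613, plus strand: aacaagtgaACGCGAGGTGGCgctgttgct
Hoxd8-Hoxd9, chr2:74702386-74702415, plus strand: cgcatttggCCACTAGAGAGCgctgttgct
Hoxa7-Hoxa9, candidate under the threshold, chr6:52221800-52221829, minus strand: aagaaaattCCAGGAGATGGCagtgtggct

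The next set shows sites at matching places of different clusters. It was chosen with the values known. Its pairs shared 17 to 25 of 30 bases, where the median at matching places was 17. Hoxc5-Hoxc6 was added as a site unlike its counterparts. For Hoxc5-Hoxc6 and the last pair the best alignment had 3 mismatches to the core, and for Hoxa4-Hoxa5 and Hoxb4-Hoxb5 it had 2.
Hoxa10-Hoxa11, chr6:52240532-52240561, minus strand: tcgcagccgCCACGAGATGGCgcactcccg
Hoxd10-Hoxd11, chr2:74686471-74686500, plus strand: cttctacagCCACACGAGGGCgcgctcatg
Hoxa5-Hoxa6, chr6:52204650-52204679, minus strand: gcccagtctCCAGCGGGTGGCgctcgagtc
Hoxb5-Hoxb6, chr11:96303236-96303265, plus strand: cgtcaatcgCCGGGAGGTGGCgcgctctgc
Hoxc5-Hoxc6, chr15:103013667-103013696, plus strand: caagcgatgCTACAAGATGAAattcctccg
Hoxa4-Hoxa5, chr6:52197457-52197486, minus strand: taggaatcgCCAGCAGAGCTCgctttagta
Hoxb4-Hoxb5, chr11:96311733-96311762, plus strand: ccggatctgCCAGTAGAGTCCgccttagac
within Hoxc10, chr15:102970927-102970956, minus strand: tcttgctaaTCTCCAGGCGGCgctctcgcg
within Hoxd10, chr2:74694220-74694249, minus strand: tcttactgaTCTCTAGGCGGCgctcgcggg

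The third set holds the other sites with the core inside the clusters.
Hoxa11-Hoxa13, chr6:52257112-52257141, plus strand: agcttgtcaACACGAGGTGGCgcccttgat
Hoxd12-Hoxd13, chr2:74673169-74673198, minus strand: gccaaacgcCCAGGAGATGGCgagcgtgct
Hoxb9-Hoxb13, chr11:96223998-96224027, minus strand: ccacagaggCCAGAAGAGGGCgccattttt
Hoxd4-Hoxd8, chr2:74715912-74715941, plus strand: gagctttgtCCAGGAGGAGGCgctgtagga
within Hoxb3, chr11:96346186-96346215, minus strand: agggaggggCCGGCAGGGGGCggcagcgga

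The last set gives, for each side of each cluster, the core at the strongest peak that had one.
Hoxa 5′ side, chr6:52270693-52270722, plus strand: gatctttccCCACTAGATGTCttccaagtt
Hoxa 3′ side, chr6:52036296-52036325, minus strand: ctggggaagCCAGAAGAGGGCactggatcc
Hoxb 5′ side, chr11:96093517-96093546, plus strand: ctggagcaaCCTCTAGAGGGCagcctcata
Hoxb 3′ side, chr11:96438941-96438970, plus strand: tccctctcgCCTGTAGGTGGCgcctctctg
Hoxc 5′ side, chr15:102742822-102742851, minus strand: atgaaatttCCACCAGGGGGCgatggaggc
Hoxc 3′ side, chr15:103130940-103130969, minus strand: ctagagaggCCAGAAGAGGGCacatgatcc
Hoxd 5′ side, chr2:74655518-74655547, minus strand: ctcctgctgCCGCTAGGGGGCgccccgggg
Hoxd 3′ side, chr2:74964530-74964559, minus strand: aaggagcctCCAGCAGGGGGCacccttttg

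CTCF peaks were denser inside Hoxa, Hoxb and Hoxd than beside them, but not in Hoxc, and most inside peaks were strong. The 28 inside peaks came to 5.77 per 100 kb, against 2.81 in the flanks and 2.05 over the chromosomes. Hoxd was the densest with 8 peaks in 96.8 kb, or 8.26 per 100 kb. Hoxb had 11 in 174 kb (6.32) and Hoxa 5 in 98.5 kb (5.08). Hoxc had the fewest, 4 in 116 kb (3.46). In the 400 kb of flanks the densities were 1.25 per 100 kb for Hoxd, 3.75 for Hoxb, 2.25 for Hoxa and 4.0 for Hoxc. Soft-masked repeats made up between 13.4% (Hoxa) and 24.6% (Hoxb) of cluster sequence and 36.4% of the genome, and the part of this difference in the peak density was not tested. Of the inside peaks, 20 had a signal at or above the median of all peaks, 71.4% (95% exact binomial interval 51.3 to 86.8, which covers counting error only), as did 31 of 45 flank peaks, 68.9%, where 50% is the background by definition. The median was 564 inside, with a range from 74.4 to 795, and 491 in the flanks. The highest signal in the whole list was 889.

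**Figure D1:**
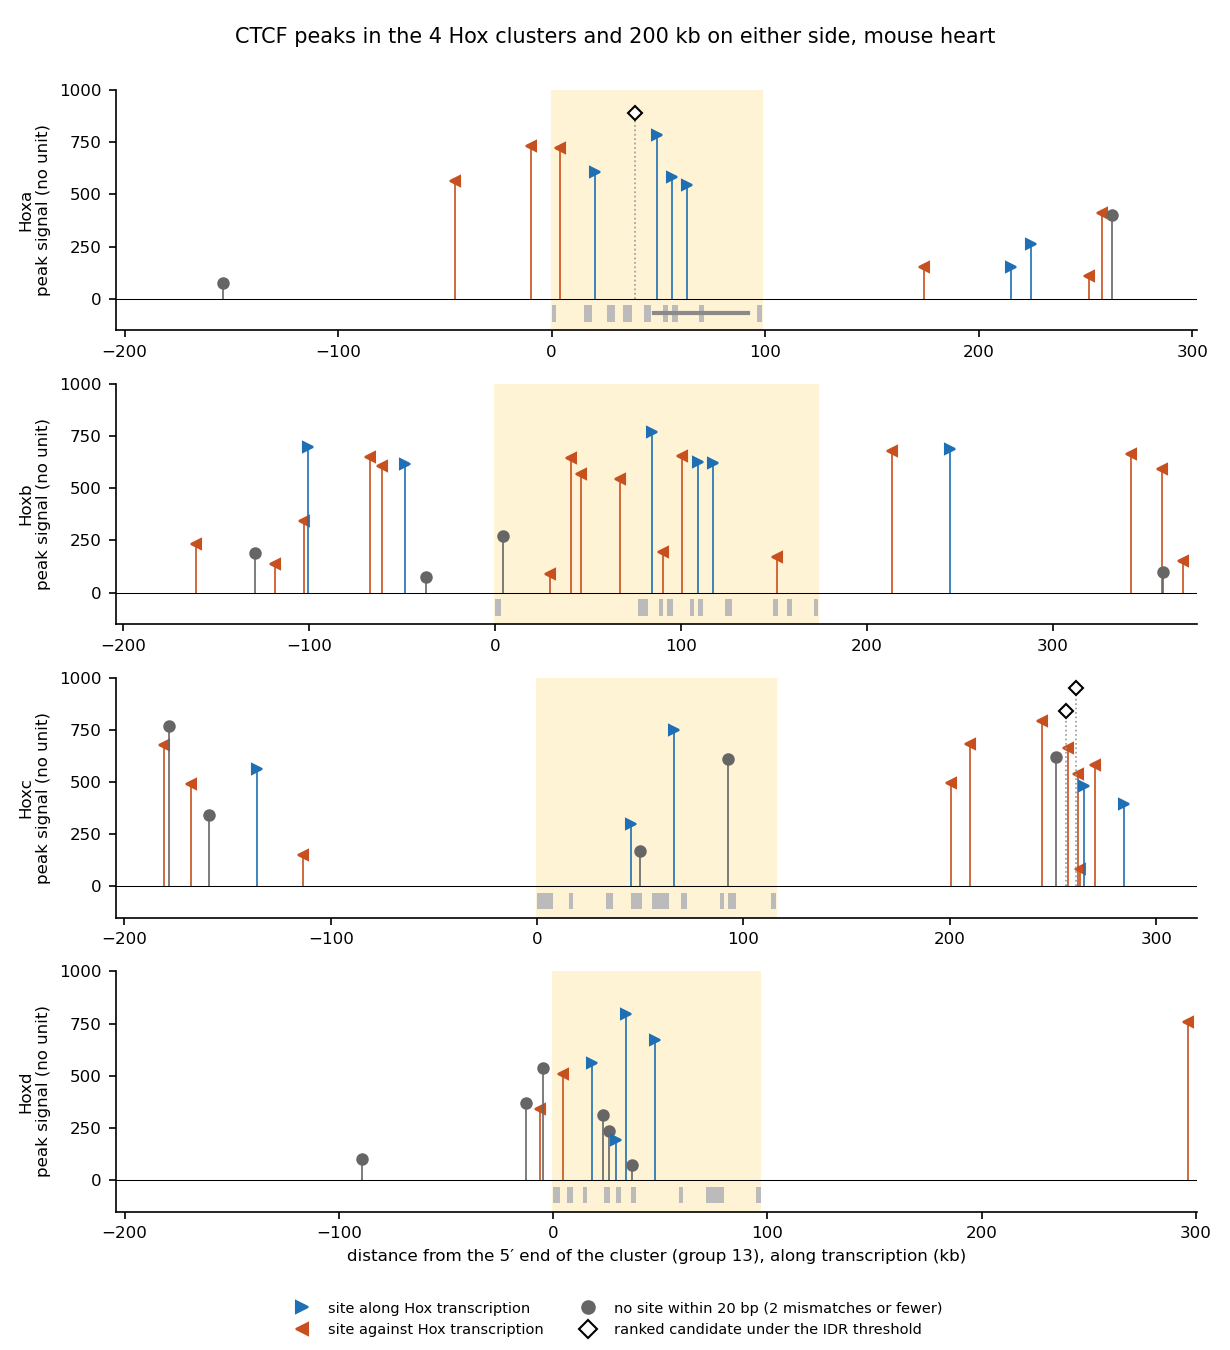
Each panel is 1 cluster (shaded) with 200 kb on either side, drawn along transcription from the group 13 end; the x axis is distance in kb and the y axis the peak signal (no unit). Stems are conservative peaks, triangles give the direction of the near site, circles have no near site, and open diamonds are ranked candidates under the IDR threshold; grey boxes are genes and the grey bar is the principal transcript of Hoxa3. The right-hand side of Hoxd is empty from 47.6 kb until a single peak of 757 lies 199 kb beyond the cluster.

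Of 33 gaps between neighbouring Hox genes, 17 held a peak. Among 16270 gaps of up to 74 kb between neighbouring protein-coding genes, 42.2% held one, and among those with both genes on 1 strand 43.5%. The Hox share was not far above this background as a whole, but the sets differed in gap length. Of the 16270 other gaps 5662 were longer than 20 kb, against 3 of the 33 Hox gaps. The Hox share was also spread differently over gap length. Of 10 Hox gaps of up to 5 kb, 5 held a peak, where 19.8% of other gaps did. Of 12 gaps of 5 to 10 kb, 8 held one, against 38.1%. Of 8 gaps of 10 to 20 kb, 2 held one, against 46.9%, and of the 3 longest 2 did, against 60.2%. The split by length was made after the gaps had been seen and was not tested.

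**Figure D2:**
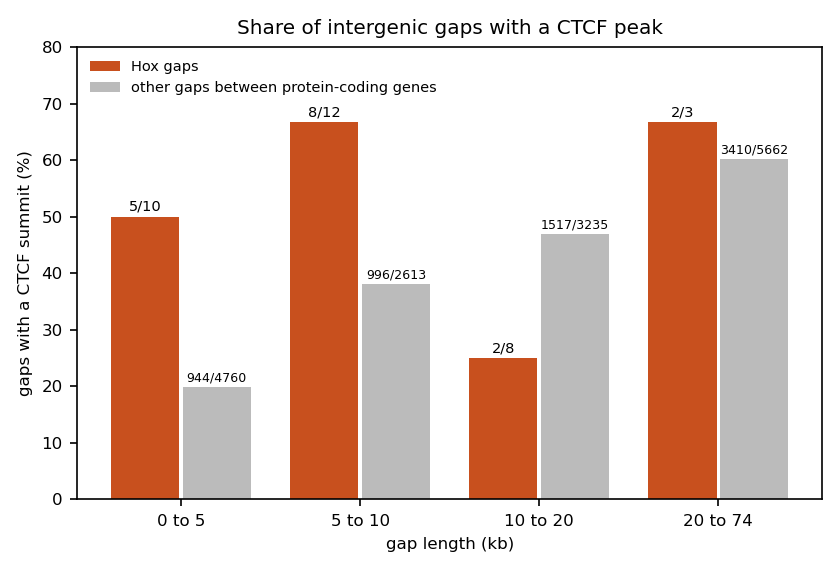
Bars give the share of gaps between neighbouring protein-coding genes that held a conservative CTCF summit (y axis, %), by gap length (x axis, kb), for Hox gaps and for all other gaps up to 74 kb; the counts stand above the bars. In the classes up to 10 kb the Hox bars are higher, at 5 of 10 and 8 of 12 gaps against 19.8% and 38.1%.

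Peaks were missing from the gaps at the group 1 end of the clusters. None of the 6 gaps between genes of groups 1 to 4, with 68.8 kb in total, held a conservative peak. Few would lie there at the density over the chromosomes, 2.05 per 100 kb. Of other gaps, 19.8% to 60.2% held a peak, depending on length. The grouping of gaps was made with the peaks known and was not tested. Of 11 gaps between genes of groups 5 to 9, 8 held one, 13.4 peaks per 100 kb. Of 8 gaps between groups 10 to 13, 5 did, 8.72 per 100 kb. The 4 gaps that join group 4 to the next group above held 3 peaks in 3 gaps. The 4 gaps from group 9 upwards held peaks only between Hoxb9 and Hoxb13, where 5 lay in 74009 bp, and none lay between groups 9 and 10 of Hoxa, Hoxc and Hoxd. One neighbour pair, Hoxa3 and Hoxa4, has no gap, because the principal transcript of Hoxa3 runs over Hoxa4, Hoxa5 and Hoxa6. It therefore also holds the 3 peaks assigned below to gaps between Hoxa4 and Hoxa7.

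**Figure D3:**
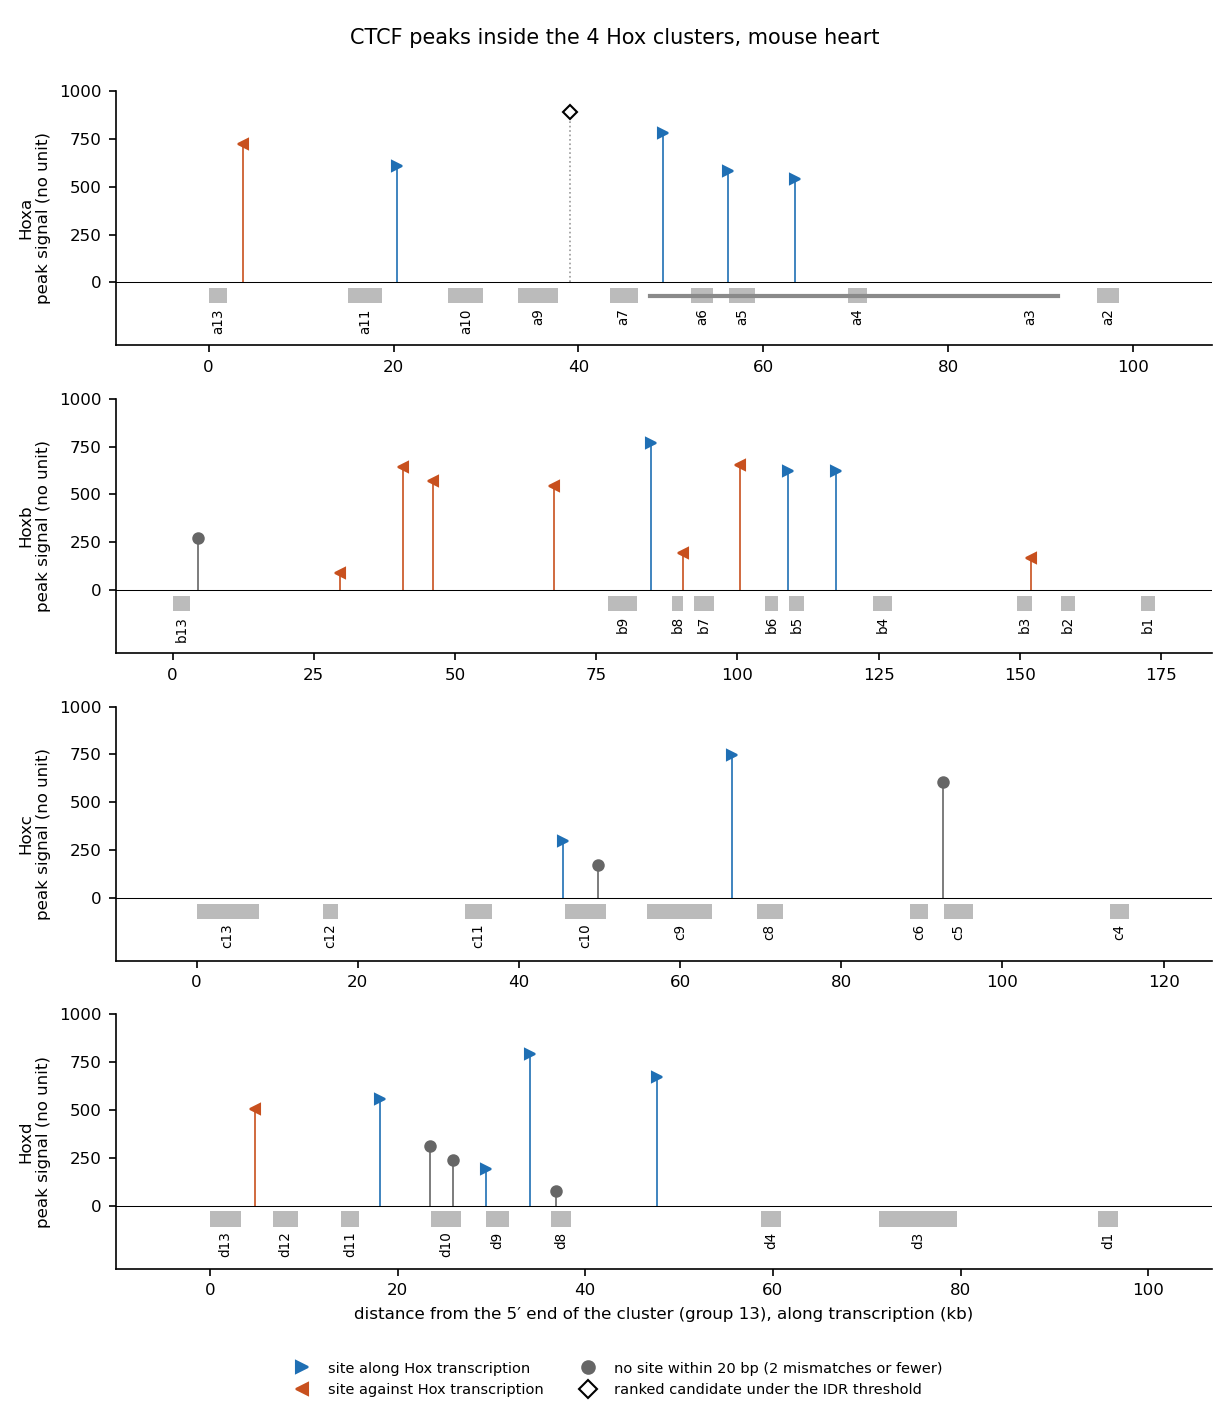
Peaks inside each cluster, along transcription from the group 13 end (x axis, kb; y axis, peak signal without unit); boxes are principal transcripts with the gene's letter and number, the bar is Hoxa3, and symbols give the direction of the near site as in the legend. In Hoxa and Hoxd the first peak points against transcription and every later near site along it, while Hoxb holds runs of both.

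In Hoxa the 5 peaks were all strong and all lay between genes on the group 13 side of Hoxa4. Between Hoxa13, a distal limb and genital gene, and Hoxa11, which acts in limb and uterus, a peak from 52256887 to 52257373 had a signal of 722, with 400 in pool G and 322 in pool H when each was thresholded alone. Between Hoxa11 and Hoxa10 the signal was 607 (pool G 320, pool H 286), and this summit lay 242 bp downstream of an annotated Hoxa10 start. Between Hoxa7 and Hoxa6 it was 783, the strongest of the cluster. That peak was in the pool G list with 418, but in pool H it reached 371 in the ranked list of candidates and did not pass the IDR threshold. The summit between Hoxa6 and Hoxa5 (583; pool G 313, pool H 270) lay 77 bp upstream of the Hoxa5 start. Between Hoxa5 and Hoxa4 the signal was 543 (pool G 289, pool H 255). From there no conservative peak followed for 111 kb, a stretch with Hoxa4 and Hoxa2, where the second list of both pools had 2 peaks of at most 85.6.

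Hoxb had its peaks in a wide upstream gap and in a row from Hoxb9 to Hoxb4. Between Hoxb13 and Hoxb9, where other clusters hold groups 10 to 12, 5 peaks followed each other with signals of 270, 88.8, 645, 569 and 544. The weakest of them passed in pool H only (36.7), with 47.3 in the pool G ranked list. Of these 5, the summit nearest to Hoxb9 lay 9697 bp upstream of it. Between Hoxb9 and Hoxb8 stood the strongest peak of the cluster, from 96278715 to 96279194, with 770 (pool G 398, pool H 374). The gap between Hoxb7 and Hoxb6 had 652 (pool G 343, pool H 307), that between Hoxb6 and Hoxb5 had 624 (321 and 303), and that between Hoxb5 and Hoxb4 had 621 (333 and 292). These 3 values were close together, and their order differed between the pools: the Hoxb5-Hoxb4 peak was above the Hoxb6-Hoxb5 peak in pool G and below it in pool H. The gaps from Hoxb4 to Hoxb1 had none.

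Hoxc held only 4 peaks, none among its 3 genes nearest the 5′ end. The gaps Hoxc13-Hoxc12 and Hoxc12-Hoxc11 were empty, and the nearest upstream peak lay 114 kb outside the cluster. The first inside peak, with 299 (pool G 166, pool H 134), lay 207 bp upstream of Hoxc10. A peak of 749 (pool G 406, pool H 347) stood between Hoxc9 and Hoxc8, from 102987361 to 102987825. Another of 608 (324 and 282) lay 136 bp upstream of Hoxc5, the gene next to Hoxc6. The gaps Hoxc10-Hoxc9, Hoxc8-Hoxc6 and Hoxc5-Hoxc4 were empty.

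In Hoxd all 8 peaks lay between Hoxd13 and Hoxd4. The gap between Hoxd13 and Hoxd12, genes of the digits and genital bud, held 507 (pool G 288, pool H 219). Between Hoxd11 and Hoxd10 there were summits of 560 (pool G 295, pool H 264) and 314 (161 and 151), the latter 155 bp upstream of Hoxd10. The strongest peak inside any cluster, 795, lay between Hoxd9 and Hoxd8 from 74702150 to 74702642 (pool G 417, pool H 377), at percentile 97.8 of all conservative peaks. The single summit between Hoxd8 and Hoxd4 had 672 (358 and 315) and lay within 1 kb of a start of Hoxd3os1, an antisense transcript. Beyond it the chromosome was without a conservative peak for 249 kb, over Hoxd4, Hoxd3, Hoxd1 and the neighbouring gene Mtx2. The second list of both pools had no peak there either, and the strongest ranked candidate reached 51.4.

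Some gaps held a peak in most or all of the clusters that have the genes. Next to group 9, on its 3′ side, Hoxb had 770, Hoxc 749 and Hoxd 795, the strongest inside peak of each cluster. In Hoxa the matching gap, between Hoxa9 and Hoxa7, had no peak in the conservative, second, pool G or pool H lists. The ranked list of both pools did hold a candidate there, from 52221546 to 52222074, with a signal of 892 and an exact core, above every conservative peak, but with a scaled IDR of 371 where 540 is the threshold. Between groups 5 and 6 the signals were 583 in Hoxa, 624 in Hoxb and 608 in Hoxc, and the summits lay 77, 259 and 136 bp upstream of the principal start of the group 5 gene. Between groups 10 and 11 the strongest were 607 in Hoxa, 299 in Hoxc and 560 in Hoxd. Between groups 6 and 7, present as neighbours in 2 clusters, Hoxa had 783 and Hoxb 652.

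Other matching gaps were occupied in some clusters only. Between groups 4 and 5 Hoxa had 543 and Hoxb 621, while Hoxc had none in a gap of 16965 bp. Below group 13, Hoxa had 722 and Hoxd 507, and Hoxc none. Matching places are gaps or genes, not positions within them. They were defined after the peaks had been seen, and paralogous genes share ancestry, so no test was made of how often places coincide.

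**Figure D4:**
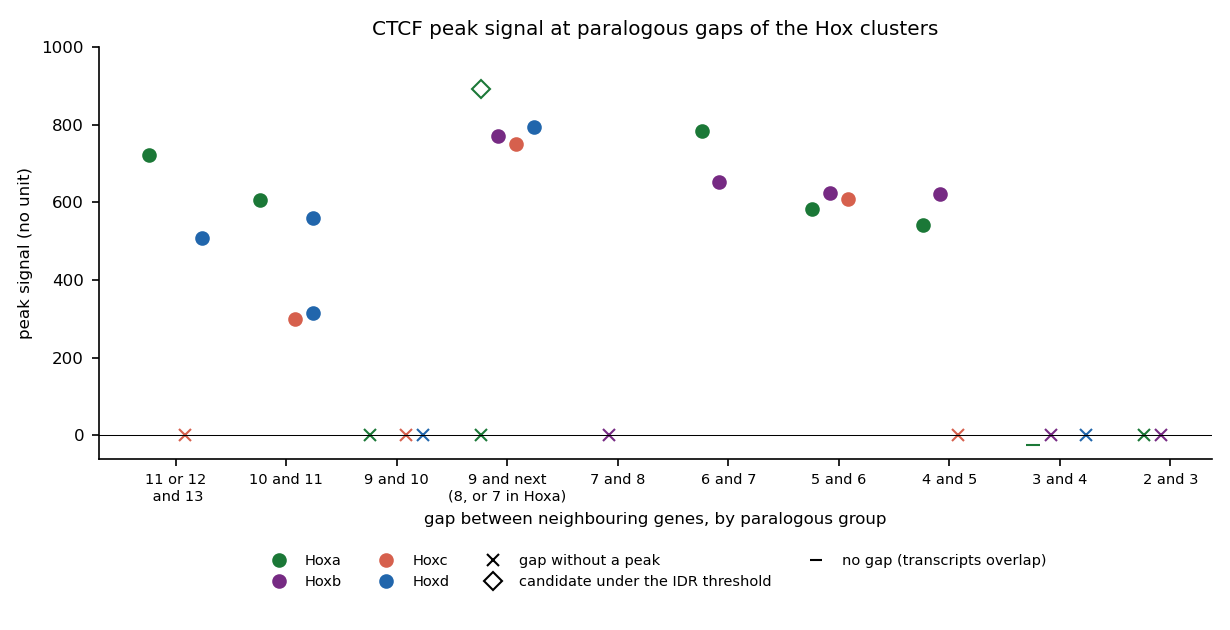
Peak signal (y axis, no unit) at gaps that occur in more than 1 cluster or lie between consecutive groups, from group 13 on the left to group 2 on the right (x axis); colours mark the cluster, crosses are gaps without a peak, the open diamond is the Hoxa7-Hoxa9 candidate of 892, and a dash marks overlapping transcripts. Gaps with no counterpart, such as Hoxb9-Hoxb13 or Hoxd4-Hoxd8, are not drawn; beside group 9 the 3 conservative peaks lie between 749 and 795.

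Sites at matching places shared more bases at the median than other sites, but the pairs varied widely. For 18 pairs of sites in the matching gap or gene of different clusters, a median of 17 of 30 bases were identical. The range was from 8 to 25. For 284 other pairs between clusters the median was 13, from 4 to 22. The 30 bases include the 12 on which sites were aligned to the core. In the other 18 bases the medians were 8 and 6. The pairs include the Hoxa7-Hoxa9 candidate under the threshold. They also include peaks without a near site, such as Hoxc5-Hoxc6 and those in Hoxc10 and Hoxd10. The strand relative to transcription was the same in 17 of the 18 pairs and in 125 of the others. The exception was the Hoxa6-Hoxa7 and Hoxb6-Hoxb7 pair, for which the Hoxa site matched equally well on both strands. The Hoxc5-Hoxc6 site shared 8 bases with each of the Hoxa5-Hoxa6 and Hoxb5-Hoxb6 sites, and that between Hoxa6 and Hoxa7 shared 11 with its Hoxb counterpart. The closest pair, with 25 identical bases, lay in coding exons of Hoxc10 and Hoxd10, limb patterning genes whose reading frames are themselves related. The pairs share sites and were formed after the data had been seen.

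Apart from the long Hoxa3 transcript, peaks within principal Hox transcripts had lower signals than those outside them. This contrast depends on the choice of transcript. Peaks of 607, 652 and 672, counted as between genes, lay downstream of other annotated starts. These were starts of Hoxa10 (242 bp), Hoxb6 (2233 bp) and Hoxd4 (4001 bp). In Hoxc an annotated Hoxc5 start lay 3505 bp before the summit in Hoxc10. The Hoxc peaks of 749 and 608, also counted as between genes, therefore lay downstream of that start. Of 9 inside peaks in principal transcripts, 3 lay in that of Hoxa3 (783, 583 and 543) and are counted above in the gaps between Hoxa4 and Hoxa7. The other 6 had a median of 180, and all 9 a median of 195. The 19 peaks outside any principal transcript had a median of 608 and ranged from 88.8 to 795. In Hoxd10 a coding exon held 237 (pool G 123, pool H 116), and in Hoxc10 a coding exon held 170 (102 and 69.2). Hoxb3, a hindbrain gene, had 170 in a coding exon (102 and 69.1), the only conservative peak of Hoxb on the group 1 side of Hoxb4. The others were in the 3′ UTR of Hoxb8 (195), the 5′ UTR of Hoxd9 (191) and an intron of Hoxd8 (74.4). The Hoxd8 peak passed in neither pool alone, with 43.7 and 29.9 in the ranked lists of pools G and H.

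Hox genes had promoter peaks less often than the background within 1 kb and more often within 5 kb, and neither difference was tested. Within 1 kb of any annotated start, 8 of 38 genes had a conservative peak (Hoxa5, Hoxa10, Hoxb5, Hoxc5, Hoxc10, Hoxd8, Hoxd9 and Hoxd10), against 34.6% of 21938 protein-coding genes. With principal starts alone there were 7. The strongest were Hoxb5 (624), Hoxc5 (608), Hoxa10 (607) and Hoxa5 (583), and the other 4 lay between 74.4 and 314. No gene of groups 1 to 4 or 11 to 13 was among them. Within 5 kb of a start 24 of the 38 genes had a peak, against 53.8% of all protein-coding genes.

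Genes that work with Hox proteins were looked at in the same way, again beside a background of 34.6%. Of 22 Polycomb and Trithorax regulators, which set the silent and active chromatin of Hox clusters, 12 had a promoter peak, the strongest at Kmt2b (765), Ezh1 (665) and Cbx2 (547). Of 9 TALE cofactors, homeodomain partners of Hox proteins on DNA, 4 did, a share near that background: Pknox2 (404), Meis3 (264), Pbx4 (122) and Meis2 (64.1). Of 11 ParaHox and related homeobox genes only Gbx1 did (187), and Evx1 and Evx2, which border Hoxa and Hoxd, did not.

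The direction of the near sites was ordered along Hoxa and Hoxd. Inside Hoxa the site below Hoxa13 pointed against transcription and the 4 towards the 3′ end pointed along it, although the Hoxa6-Hoxa7 site fits both strands. In Hoxd the site below Hoxd13 pointed against transcription and the 4 later near sites along it. Only 5 of the 8 Hoxd peaks had a near site. Among the rest, the best alignment within Hoxd10 pointed against transcription. Those just upstream of Hoxd10 and in Hoxd8 pointed along it. Both near sites of Hoxc pointed along transcription. At the other Hoxc peaks the best alignment pointed against transcription within Hoxc10 and along it between Hoxc5 and Hoxc6. In Hoxb 4 sites upstream of Hoxb9 pointed against transcription, the Hoxb8-Hoxb9 site along it, those in Hoxb8 and between Hoxb6 and Hoxb7 against, those on either side of Hoxb5 along and that in Hoxb3 against. Over all clusters 13 near sites inside pointed along transcription and 9 against.

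On the 3′ sides most sites pointed back towards the cluster. Of 20 near sites there, 15 pointed against transcription, and so did 11 of 14 on the 5′ sides, where this direction points away from the cluster. The site of the single 3′ peak of Hoxd (757), for example, faced the cluster across the 249 kb without a peak, and the site between Hoxd8 and Hoxd4 pointed towards it. With the core in place of the near site, 9 of 12 on the 3′ sides, 11 of 14 on the 5′ sides and 4 of 11 inside pointed against transcription. Of 18 exact cores in and around the clusters, 1 lay on the plus strand, against 49.5% over all peaks. The plus strand is the transcribed direction in Hoxb, Hoxc and Hoxd and the opposite one in Hoxa. Neighbouring sites are not independent, and no test of direction was made.

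Sites inside the clusters were often imperfect copies of the core. With at most 1 mismatch, 11 of 28 inside peaks had the core, 39.3% (21.5 to 59.4), and 26 of 45 flank peaks, 57.8% (42.2 to 72.3). The background was 66% of all peaks and 43.3% of those within 1 kb of a start, a class that held 11 of the 28 inside peaks and 20.4% of all peaks. Of the inside peaks within 1 kb of a start, 5 of 11 had the core, 45.5% (16.7 to 76.6). Of those farther from a start 6 of 17 did, 35.3% (14.2 to 61.7), against 71.8% of all peaks farther from a start. The cause was not tested. None of the 4 Hoxc peaks had the core. With the near site the shares were 78.6% inside and 75.6% in the flanks, against 76.6% of all peaks. Peaks without the core were not all weak: Hoxa6-Hoxa7 (783), Hoxc8-Hoxc9 (749) and Hoxb6-Hoxb7 (652) had none.

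Some of the sites lay in soft-masked repeats, mostly at peaks below the median signal of 286. Inside the clusters this was the case for 1 core, the exact core in the Hoxb9-Hoxb13 gap with a signal of 88.8. In the flanks 7 cores were soft-masked. The signals of 5 of them lay between 75.6 and 261, and the other two were 344 on the 5′ side of Hoxb and 680 on the 3′ side of Hoxc. Outside soft-masked sequence the clusters held 6 exact copies of the core, of which 2 lay within 100 bp of a summit, against 53.1% of 16616 such copies in the genome. Of 65 copies with 1 mismatch 8 did, 12.3% (5.47 to 22.8), against 8.34%.

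The flanks differed from cluster to cluster. Hoxa had peaks of 733 and 562 at 9.83 and 45.2 kb on its 5′ side, the latter 7435 bp from Evx1. On its 3′ side the nearest lay 76.2 kb away, and the 6 peaks had signals of 108 to 409, of which 3 were in Skap2, an adaptor protein gene. Hoxd had 3 peaks close to its 5′ end, 537, 339 and 369 at 4.55, 6.30 and 12.7 kb, around Evx2, and a weak one (103) 87 bp from the principal transcript of Lnpk.

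Hoxb and Hoxc had many flank peaks. On the 5′ side of Hoxb 9 peaks lay between 37.0 and 161 kb from the cluster, the strongest with 699 near Calcoco2 and 651 and 614 near and in Ttll6, a tubulin-modifying enzyme gene. On its 3′ side peaks of 677 and 687 lay 39.7 and 70.7 kb away, before Skap1, and 664 in Skap1 itself. On the 5′ side of Hoxc the strongest were 767, 679 and 564, with Calcoco1 as the nearest named gene. On its 3′ side 10 peaks stood between 84.8 and 168 kb from Hoxc4, the strongest with 791 within 1 kb of a start of Smug1, a DNA repair gene, followed by 680 and 664, and the last of them in Cbx5, a heterochromatin protein gene.

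The same peaks were found in both pools with few exceptions. Of the 28 inside peaks, 26 had a summit of the pool G list within 100 bp and 26 one of the pool H list, where 90.5% and 87.9% of all conservative peaks did. Of the 45 flank peaks these counts were 45 and 41. The pools had already been used to select the conservative list, so these counts describe it and support nothing further. Of 8 absences from a pool list, 6 concerned 5 peaks with signals of at most 103. The other two were the peaks Hoxa6-Hoxa7 (783) and Smug1 (791), which both failed in pool H with high ranked signals of 371 and 384.

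Pool G values stood above pool H values at nearly every Hox peak. The ratio of the ranked signals had a median of 1.15 inside, from 1.06 to 1.73, and 1.23 over 53538 conservative peaks. The largest ratio, 2.64, belonged to the weaker of a pair of summits that share the interval from 96553138 to 96553609 in Skap1, and 1 flank peak had a ratio below 1, at 0.965. The signal can move with depth, which is unknown for both pools, so these ratios are no measure of a difference in binding.

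**Figure D5:**
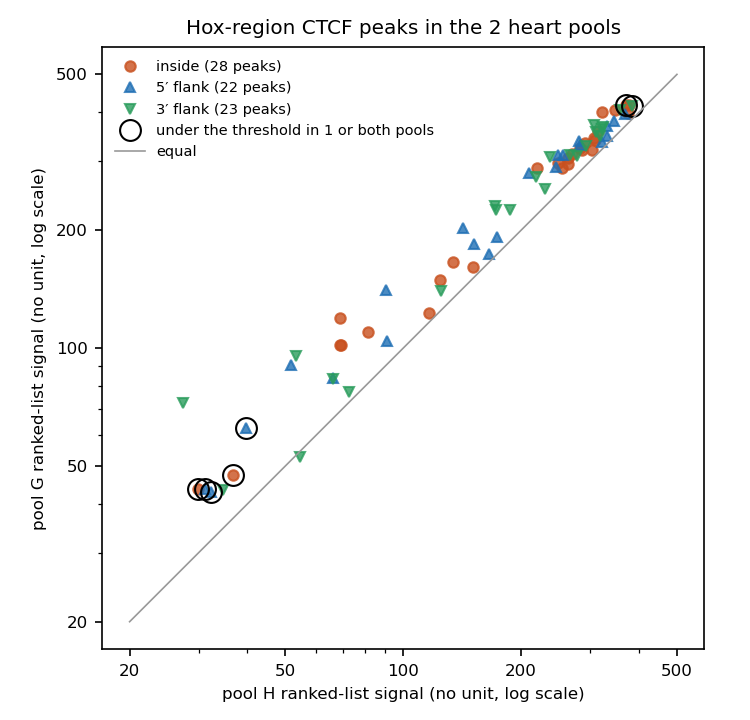
Ranked-list signal of the 73 Hox-region peaks in pool H (x axis) and pool G (y axis), both on a log scale and without unit; symbols give the region, black rings mark peaks that missed the IDR threshold in at least 1 pool, and the line marks equal values. Nearly all points lie above the line, and 2 of the rings stand among the strongest peaks.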

How the data were processed

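CTCF ChIP-seq peak lists of 4 heart libraries (2 pools) were analysed. Per the labels the lists are on mm10; aligner and caller names were not given in the sources used here. The authors deposited a signal for each peak, without a stated unit, and a score, a scaled IDR on which 540 equals an IDR of 0.05 and 830 one of 0.01. Read depth is unknown, so intervals cover counting error over peaks only.

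The members and lists were chosen with earlier results of these data known. Summits of the conservative list were placed against GENCODE M21, with 1 principal transcript per gene (best APPRIS level, then the shortest). This tie-break was set after the peak positions had been seen; it moved the starts of Hoxb8 and Hoxd3. A peak was matched to a pool list by a summit within 100 bp, and promoter meant within 1 kb of any start.

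The core was searched on both strands of GRCm38.p6 with at most 1 mismatch within 100 bp. A matrix learned from these peaks marked 31.5% of all peaks and served as an alternative; a further matrix was tried, looked at and dropped, and is not reported here. The near site, matching places, site identity, gap lengths, the grouping of gaps by paralog group and ranked candidates were added after seeing the data. By the rule for named genes, all members were named, in the flanks the genes nearest the 3 strongest peaks of a side and 12 listed neighbours within 200 kb, and sequences of inside peaks with the core and of the strongest flank peak with it per side. Sequences of other sites at matching places were chosen after their values were seen. No groups exist, so no test was made. The search for the core was tested on simulated data: of 1000 windows with a planted core it found 100.0%, and of 1000 without one it marked 2.4%. The planted cores followed the search rule and the windows were random sequence, so this checks the code only. In the genome the core was found in 5.55% of windows 1 kb away from the peaks. Scripts ran in Python 3.11.15 with pandas 2.3.3 and numpy 2.4.6, intervals came from scipy 1.17.1, and figures from matplotlib 3.10.9.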

Additional observations from a re-analysis of the deposited data

Results flagged for a closer look

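The ranked list of both pools held 3 candidates in these regions that were absent from the conservative list although their signal exceeded its median, 286. The report's comparisons rest on that list, so these signals lie outside them.

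The candidate between Hoxa7 and Hoxa9, from 52221546 to 52222074 on chromosome 6, had a signal of 892 and ranked 21 among all candidates by signal. Its scaled IDR was 371. In the ranked lists of the single pools it had 464 in pool G and 429 in pool H, with scaled IDRs of 72 and 78, so that no thresholded list used here held it. It carries an exact core along Hox transcription, and the next strongest candidate inside Hoxa reached 45.1.

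The other 2 candidates lay on the 3′ side of Hoxc. One, from 103176985 to 103177504 on chromosome 15, had a signal of 839 and a scaled IDR of 343; the second list and the pool G list (435) held it. The other, from 103181956 to 103182701, had 948, the rank 2 of all candidates, and a scaled IDR of 266; only the pool H list (445) held it.

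Strong candidates without a call also occurred elsewhere. Of 1372 candidates in the whole list with a signal of at least 800, 388 were under the IDR threshold, 28.3%, and so were all 27 above the strongest conservative peak. All 421 candidates under the threshold with a signal of at least 300 also had one of at least 700. The cause was not tested.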

How the results depend on the processing

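The counts of inside peaks (26 to 29) and of gaps with a peak (14 to 19) stayed within 1.5 times the reported count with the second list, either pool alone, a scaled IDR of at least 830, other gene models and, added after seeing the data, strong candidates under the threshold; for gaps also with any base of a peak interval. The shares of peaks in the pool lists were recomputed only for summits within 250 bp and for overlaps of at least 1 base or 50% of the peak, and stayed within their interval. The median signal of the 73 peaks was 538, and 541 with 1 summit per interval or at a scaled IDR of at least 830. Flank counts followed the window, with 15 peaks within 100 kb and 155 within 500 kb in place of 45. Promoters of 5 kb gave 24 genes in place of 8. The share of peaks with the core, 50.7%, was 24.7% for the exact core, 87.7% for at most 2 mismatches within 100 bp (28.4% of windows 1 kb away), 76.7% for the near site and 20.5% for the learned matrix. The plus-strand share of sites, 37.8%, was 5.56% for the exact core and 6.67% for the matrix; the cause was not tested. Gaps between coding regions held a peak at 19 and gaps between whole genes at 14 places. No paired analysis was possible because the technical numbers shared by the pools mark libraries and the peak lists hold no value per library. With 2 pools and unknown depth, weak peaks missing from 1 pool cannot be told from differences in depth.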
